A study of Mus musculus with 9 samples.

Results

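The far intergenic regions described here are stretches of open chromatin that lie outside every annotated gene body and whose centre is 100 kb or more from the nearest start site of a protein-coding transcript. They were found by ATAC-seq, in which a transposase cuts accessible DNA and stretches where the cut fragments pile up are called as peaks. Peaks of 9 libraries that overlapped or touched were merged on chromosomes 1 to 19 of mm10, and a merged region counted as a consensus region if some line had peaks there in 2 or 3 of its libraries. Of 95142 consensus regions, 9705 were far intergenic by the GENCODE M21 annotation, 25023 were intergenic but nearer to a start site, and 60414 overlapped a gene body. The cells were C3H/10T1/2, an established mouse line of mesenchymal progenitor cells (MPCs). The lines compared were a wild-type control (WT) that had received Cas9 on an empty vector with no guide RNA, and B10 and G7, which are clones with a knockout (KO) of Atrx, with 3 libraries each. Each KO line is 1 clone made with its own guide RNA, so a difference between the lines cannot be told apart from a difference between single clones.

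Regulatory DNA far from start sites works over distance. Enhancers bind transcription factors, lose nucleosomes there and contact promoters by looping of the chromatin fibre, and the long gene-poor stretches called gene deserts often flank genes that control development. Much of the rest of such deserts is compacted, replicates late in S phase and carries few open sites in any cell type. ATRX is a chromatin remodeller that, with its partner DAXX, places a histone variant at silent chromatin and repeats.

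Every library held a peak within 1 kb of a start site of 8 of 9 mesenchymal marker genes, among them the collagen genes Col1a1, Col1a2 and Col3a1 and the mesenchymal transcription factor genes Twist1 and Prrx1, and no library held one at Thy1. Of 11 marker genes of other cell types, 7 had a peak in 0 libraries, among them Ptprc of blood cells and Epcam and Cdh1 of epithelia, and 2 (Pecam1 and Tubb3) had one in all 9. The start of Atrx lay under a peak in all 9 libraries, which says nothing about the knockouts, since an open promoter does not depend on an intact coding sequence. The lists held from 76390 to 88540 peaks per library. The number of reads behind a list cannot be had from it, and a peak that is missing from a list may have fallen just under the threshold of the peak caller. No label says whether the 3 libraries of a line came from separate cultures, so tests between them measure only the spread between these libraries. In such bulk libraries, a site open in fewer cells cannot be told apart from a site less open in each cell.

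The sequences below show the summit base and 100 bases on either side, at the highest peak of some of the regions on which the results turn, on the forward strand of GRCm38 (mm10). Capitals mark exact matches, on either strand, to letters that certain transcription factors are known to bind: TGACTCA for AP-1 (dimers of FOS and JUN proteins), CCTTTGT for SOX factors, ACATTCC for TEAD factors and TGTGGTT for RUNX factors. No match overlaps another in the windows printed. Sites of other factors, CTCF among them, and sites that differ from these letters are not marked. The first set holds a region that was strong in all 9 libraries (Trib1-4933412E24Rik), a region with a peak in the 6 KO libraries alone (Fam19a2-Slc16a7), and a pair with a peak in the 3 WT libraries alone. Each name gives the protein-coding genes on either side of the desert.
Trib1-4933412E24Rik chr15:59759699-59759899: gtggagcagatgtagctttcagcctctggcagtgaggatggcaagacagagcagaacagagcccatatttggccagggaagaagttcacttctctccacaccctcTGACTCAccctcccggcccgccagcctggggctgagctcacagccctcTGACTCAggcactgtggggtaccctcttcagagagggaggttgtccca
Fam19a2-Slc16a7 chr10:125197757-125197957: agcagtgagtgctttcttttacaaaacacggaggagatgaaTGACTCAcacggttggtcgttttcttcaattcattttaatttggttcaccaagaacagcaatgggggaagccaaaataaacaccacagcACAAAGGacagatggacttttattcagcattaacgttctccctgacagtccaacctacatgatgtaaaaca
Sec16b-Brinp2 chr1:158213828-158214028: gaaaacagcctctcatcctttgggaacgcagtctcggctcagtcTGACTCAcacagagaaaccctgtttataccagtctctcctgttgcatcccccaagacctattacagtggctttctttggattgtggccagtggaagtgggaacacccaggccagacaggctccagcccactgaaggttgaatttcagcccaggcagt
N4bp1-Cbln1 chr8:87349778-87349978: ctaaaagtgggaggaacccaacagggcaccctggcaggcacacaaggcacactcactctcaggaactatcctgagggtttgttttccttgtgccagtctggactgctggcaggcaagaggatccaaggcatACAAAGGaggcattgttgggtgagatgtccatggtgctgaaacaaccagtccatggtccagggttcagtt

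The second set holds regions with a peak in all 9 libraries whose fold enrichment differed from WT in both clones. The first 3 were stronger in the clones, and the last 2 were weaker.
Fam19a2-Slc16a7 chr10:124349382-124349582: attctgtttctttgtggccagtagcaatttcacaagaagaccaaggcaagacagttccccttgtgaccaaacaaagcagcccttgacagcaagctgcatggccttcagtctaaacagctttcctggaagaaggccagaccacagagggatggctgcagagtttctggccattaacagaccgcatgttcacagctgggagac
Ifng-Dyrk2 chr10:118630949-118631149: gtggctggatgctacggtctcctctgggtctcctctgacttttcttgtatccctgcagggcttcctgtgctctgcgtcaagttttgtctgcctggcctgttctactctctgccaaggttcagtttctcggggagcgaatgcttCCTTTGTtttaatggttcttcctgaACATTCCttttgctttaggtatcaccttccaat
Slc4a4-Gc chr5:89277715-89277915: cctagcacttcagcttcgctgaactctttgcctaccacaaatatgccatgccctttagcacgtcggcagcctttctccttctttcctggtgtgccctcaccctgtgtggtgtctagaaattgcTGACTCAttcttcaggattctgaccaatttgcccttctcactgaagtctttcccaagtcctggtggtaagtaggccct
4930452B06Rik-Fhit chr14:8789430-8789630: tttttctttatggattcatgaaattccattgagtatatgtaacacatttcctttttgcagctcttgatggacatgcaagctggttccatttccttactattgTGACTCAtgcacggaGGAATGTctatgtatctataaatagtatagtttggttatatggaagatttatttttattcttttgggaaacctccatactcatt
Slc4a3-Epha4 chr1:75653677-75653877: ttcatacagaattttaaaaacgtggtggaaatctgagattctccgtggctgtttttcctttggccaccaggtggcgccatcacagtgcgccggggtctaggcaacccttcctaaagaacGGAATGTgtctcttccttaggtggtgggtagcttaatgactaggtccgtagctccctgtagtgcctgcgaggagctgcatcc

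The third set comes from the desert between Kcnj2 and Sox9, where both regions were open in the 6 KO libraries and in no WT library. The second of these windows holds a SOX and a TEAD match.
Kcnj2-Sox9 chr11:111494461-111494661: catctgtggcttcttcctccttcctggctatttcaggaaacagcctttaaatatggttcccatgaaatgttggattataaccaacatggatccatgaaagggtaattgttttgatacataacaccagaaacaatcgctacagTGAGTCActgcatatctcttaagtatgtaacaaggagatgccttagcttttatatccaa
Kcnj2-Sox9 chr11:112250889-112251089: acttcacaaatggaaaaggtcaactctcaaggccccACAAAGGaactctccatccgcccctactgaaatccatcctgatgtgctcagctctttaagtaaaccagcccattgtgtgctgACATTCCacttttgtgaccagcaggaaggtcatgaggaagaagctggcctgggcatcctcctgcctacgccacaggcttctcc

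Far intergenic regions were sparse for the sequence they could occupy. The positions that fit the rule covered 653 Mb, or 27.3% of chromosomes 1 to 19, and held 10.2% of the consensus regions. Their density was 14.9 regions per Mb, against 43.0 per Mb in the intergenic sequence nearer to a start site. The median distance to the nearest start site was 221 kb, 10% of the regions lay beyond 643.6 kb, and 362 lay 1 Mb or more away. The median width was 585 bases, against 665 over all consensus regions. RefSeq, a separate annotation, places 11.6% of them (1125 of 9705) in a gene. The summit base lay in an annotated repeat in 9.03% of them and in 8.42% of all consensus regions, while 39.2% of the far intergenic sequence as a whole is masked as repeat. In 149 regions, or 1.54%, the sequence around the summit occurs more than once in the genome, as judged by 31-base words.

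Open sites far from genes were less often shared by all libraries. All 9 libraries had a peak in 3191 far intergenic regions, 32.9% (95% Wilson interval 32.0 to 33.8), against 46.0% of the nearer intergenic regions and 48.8% of all consensus regions. At the other end, 1077 far intergenic regions (11.1%) had a peak in only 2 libraries, against 6.91% of all. Wilson intervals here cover counting error only, since neighbouring regions are not independent. A line could bring a region in by itself: 2109 far intergenic regions (21.7%) had peaks in 2 or 3 libraries of B10 alone among the lines, 923 (9.51%) of WT alone and 441 (4.54%) of G7 alone. Any share of these regions with a peak is therefore raised in the line that brought them in, most of all in B10. The median over regions of the percentile rank of their peaks was 34.1, where each peak was ranked from 0 to 100 by its −log10 q-value within its own library, and it was 39.4 in nearer intergenic regions and 46.3 in gene bodies.

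Clone B10 had more far intergenic peaks than WT or G7. Each library's own peaks were placed by the same distance from start sites without use of the consensus regions, a measure chosen after the data were seen. Of the WT libraries' peaks, 8.76%, 8.58% and 8.71% lay outside gene bodies and 100 kb or more from a start site, against 10.5%, 10.2% and 10.1% in B10 and 8.33%, 8.51% and 8.35% in G7. All 3 B10 libraries lay above and all 3 G7 libraries below every WT library. The mean was 10.3% ± 0.215 (SD, n = 3) in B10 and 8.68% ± 0.0960 (n = 3) in WT, a difference of 1.58 percentage points. The mean in G7 was 8.40% ± 0.0962 (n = 3), which differed from WT by -0.284 points. Each comparison gave p = 0.1 in an exact two-sided permutation test (adjusted p = 0.1 over the 3 comparisons). That is the smallest p that 3 libraries against 3 can give, so no test of this kind can pass 0.05. The libraries of 1 replicate number deviated together, and an exact paired test over the 3 pairs gave p = 0.25 for each difference, the smallest it can give.

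The consensus regions gave the same order for B10, with the limit that B10 brought in the most of them. The number of far intergenic regions with a peak was 6001, 6181 and 6159 in the WT libraries, 7348, 7852 and 7394 in B10, and 5784, 6090 and 5868 in G7. As a share of the consensus regions with a peak in the same library, the mean was 8.54% in WT, 9.93% in B10 and 8.32% in G7. On this scale G7 overlapped with WT.

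**Figure D1:**
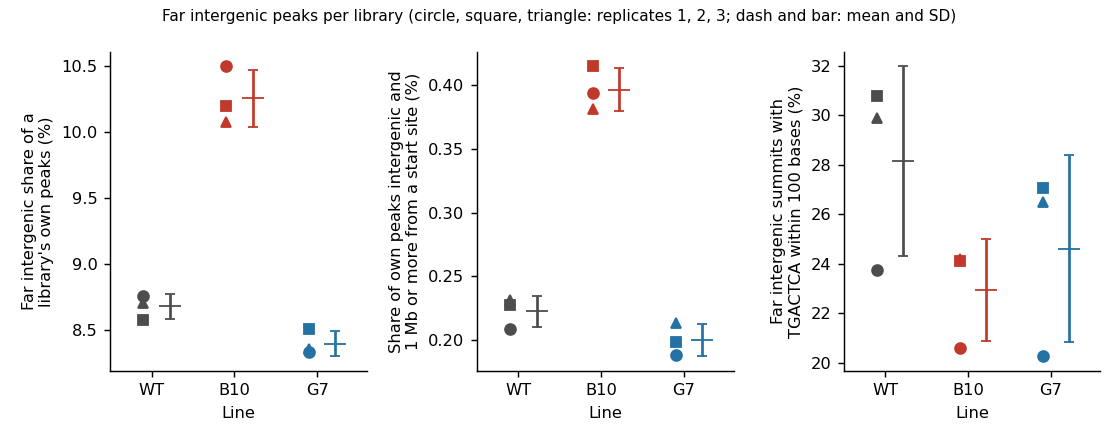
Each point is 1 library of WT, B10 or G7, with the replicate number shown by the shape and the mean and SD of the 3 libraries beside the points. The y axes, which do not start at 0, give the far intergenic share of a library's own peaks (%), the share that is intergenic and 1 Mb or more from a start site (%) and the share of far intergenic summits with TGACTCA within 100 bases (%). The B10 libraries lie above all other libraries in the left and middle panels, and replicate 1 is the lowest of its line in the right panel.

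Relative to the WT share, the excess in B10 grew with the distance from start sites. In percentage points it was 0.247 at 100 to 200 kb and 0.705 at 200 to 500 kb. At 500 kb to 1 Mb it was 0.454 points and at 1 Mb or more 0.174. Among a library's own peaks, those at 100 to 200 kb made up a mean of 4.45% ± 0.0822 (n = 3) in B10 and 4.20% ± 0.0493 (n = 3) in WT, and those at 200 to 500 kb 4.06% ± 0.0898 and 3.35% ± 0.0511. At 500 kb to 1 Mb the shares were 1.36% ± 0.0449 in B10, 0.904% ± 0.00594 in WT and 0.912% ± 0.0316 in G7. At 1 Mb or more they were 0.396% ± 0.0169 in B10, 0.223% ± 0.0122 in WT and 0.200% ± 0.0126 in G7. In numbers, B10 held 341, 355 and 303 peaks at 1 Mb or more, WT 166, 178 and 177, and G7 146, 153 and 159. In each of the 4 classes the lowest B10 library lay above the highest of WT (p = 0.1 each, exact permutation test). Nearer to genes the order of the shares was the reverse, with 13.7% ± 0.203 of the B10 peaks and 14.7% ± 0.196 of the WT peaks intergenic at 10 to 50 kb. The share in G7 was below WT as well (13.9% ± 0.135). In numbers B10 and WT overlapped there, with 11674, 11807 and 11010 peaks in B10 and 11560, 11670 and 11306 in WT.

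The consensus regions are described by distance with no test, since B10 alone brought in 148 (40.9%) of the 362 regions at 1 Mb or more. At 100 to 200 kb from a start site, a peak was present in 67.6% to 68.9% of 4331 regions in the WT libraries and in 74.7% to 79.5% in B10. At 500 kb to 1 Mb (1230 regions) WT held 50.5% to 53.3%, G7 50% to 54.4% and B10 76.6% to 82.9%. Of the regions 1 Mb or more away, WT held 40.3% to 45.6%, G7 35.1% to 40.6% and B10 69.9% to 80.1%. Among the regions with a peak in 2 or 3 WT libraries, which neither clone can bring in, the clones held like shares near genes and parted farther out. At 10 to 50 kb (10717 regions), B10 held 76.9%, 82.4% and 79.9% and G7 77.0%, 81.3% and 80.0%. At 500 kb to 1 Mb (658 regions), B10 held 73.9%, 81.5% and 79.5% and G7 63.5%, 75.7% and 72.0%. At 1 Mb or more (163 regions), B10 held 62.0%, 77.3% and 73.0% and G7 49.1%, 57.7% and 60.7%. WT itself cannot be set beside the clones in these regions, since it chose them.

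**Figure D2:**
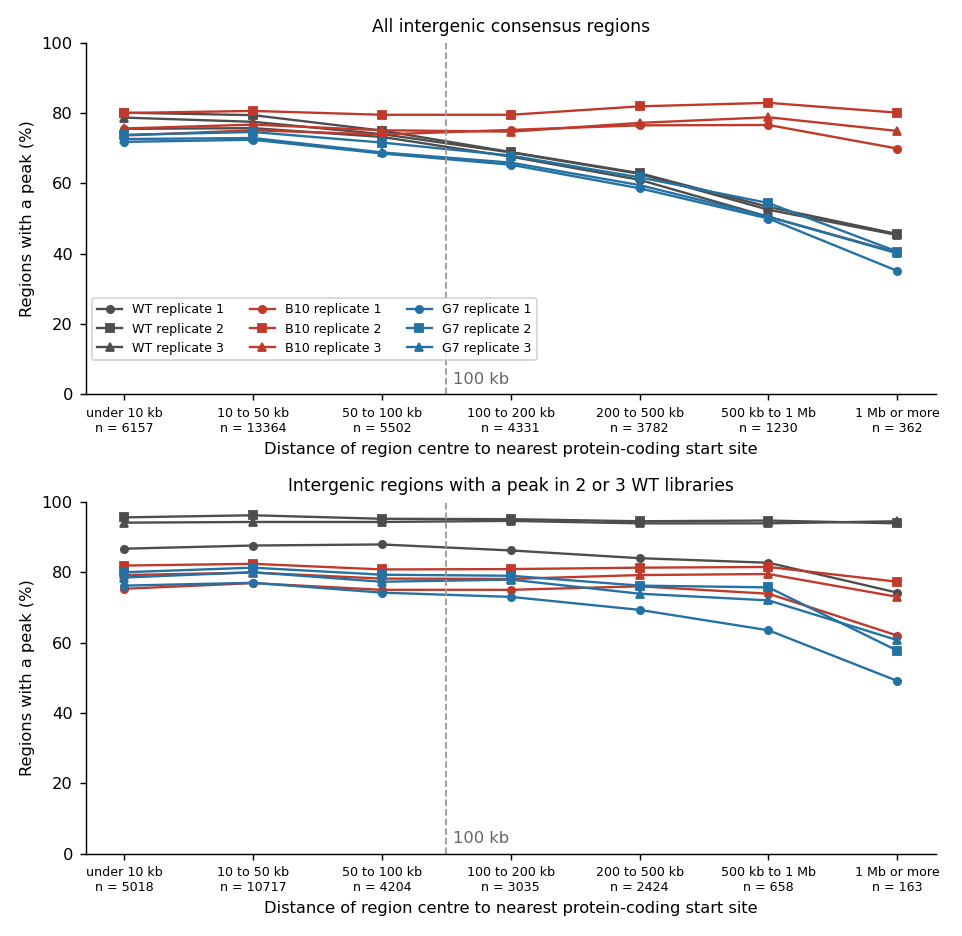
Share of intergenic regions with a peak (y axis, %) against the distance of the region centre to the nearest protein-coding start site (x axis, in classes with their number of regions), 1 line per library, over all consensus regions (top) and over those with a peak in 2 or 3 WT libraries (bottom). In the top panel the WT and G7 libraries lie at 35.1% to 45.6% at 1 Mb or more and the B10 libraries at 69.9% to 80.1%, where 40.9% of the regions were brought in by B10 alone. In the bottom panel WT is high because it chose the regions, and at 1 Mb or more B10 lies at 62.0% to 77.3% and G7 at 49.1% to 60.7%.

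Presence calls differed between the clones as well, and are given with no test. A gain in a clone itself brings a region into the consensus, and B10 alone brought in 21.7% of the far intergenic regions. Shares gained in B10, by distance or by chromosome, carry that limit. A clone gained a region if 2 or 3 of its libraries had a peak there and no WT library did, and lost a region if the opposite was true. In B10, 2038 far intergenic regions were gained, 21.0% (20.2 to 21.8), against 10.4% of all consensus regions and 8.26% of the nearer intergenic ones. The share was 16.7% in the 6452 regions of gene bodies that lay 100 kb or more from a start site. In G7, 635 far intergenic regions were gained, 6.54% (6.07 to 7.05), against 5.61% of all and 7.61% of those far regions in gene bodies. The share gained in B10 rose from 15.4% at 100 to 200 kb to 21.6%, 33.8% and 37.3% in the farther classes, and the share gained in G7 was 5.98%, 6.77%, 7.15% and 8.84% in the same classes. In gene bodies the share gained in B10 rose too, with 14.2%, 18.8%, 30.8% and 43.8% in these classes (48 regions in the last). Lost in B10 were 803 far intergenic regions (8.27%, against 7.59% of all), and lost in G7 were 963 (9.92%, against 7.43% of all). On each of the 19 chromosomes, far intergenic regions were gained in B10 more often than the other regions of that chromosome, with a range of 12.8% on chromosome 9 to 33.9% on chromosome 17.

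Gained in both clones were 399 far intergenic regions, 4.11% (3.73 to 4.52), against 2.93% of all consensus regions. The share was 4.48% in gene bodies 100 kb or more from a start site. The 399 regions made up 62.8% of the far intergenic regions gained in G7 and 19.6% of those gained in B10. Lost in both were 495, 5.10% (4.68 to 5.56), against 4.37% of all, which is 61.6% of the losses in B10 and 51.4% of those in G7. The same WT libraries enter both comparisons, so the calls of the clones are not independent of each other. Open in the 6 KO libraries alone were 161 regions, 1.66% against 1.07% of all, and open in the 3 WT libraries alone were 179, 1.84% against 1.63% of all. In gene bodies 100 kb or more from a start site these shares were 1.89% and 1.91%. WT replicate 1 weighed on these calls: without it 7.51% of the far intergenic regions were gained in both clones, and without WT replicate 2 or WT replicate 3 the share lost in both fell to 2.48% and 2.64%. The shares lost in B10 (4.22% and 4.35%) and in G7 (5.53% and 5.52%) moved likewise without WT replicates 2 and 3, and the share gained in G7 went from 4.05% without G7 replicate 3 and 4.09% without G7 replicate 2 to 10.9% without WT replicate 1.

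**Figure D3:**
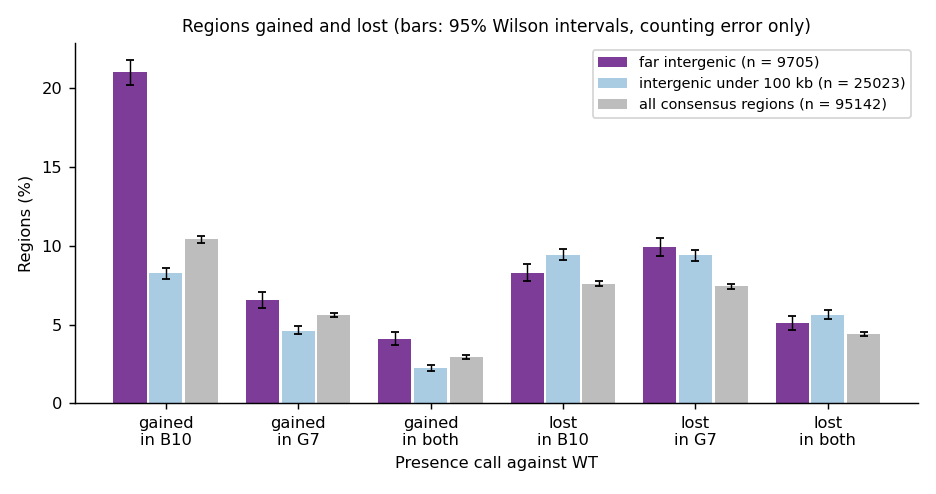
Share of regions (y axis, %) with each presence call against WT (x axis) for far intergenic, nearer intergenic and all consensus regions, with 95% Wilson intervals. The far intergenic bar stands at 21.0% for regions gained in B10, above 8.26% and 10.4%, and the other 5 calls lie between 4.11% and 9.92% in far intergenic regions.

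Peaks at the gained regions were weaker than those at the shared ones, which the calls themselves favour. A shared region had to pass the threshold of the peak caller in all 9 libraries, and a gained one had to miss it in all WT libraries. In the B10 libraries the peaks of regions gained in B10 had a median rank of 27.4 and a median fold enrichment of 5.92, and 17.0% of them ranked in the upper part of their library (a rank of 50 or more). Peaks of the regions present in all 9 libraries had a median rank of 62.2 and a median fold enrichment of 11.1. The fold enrichment is the ratio of signal to background at the summit that the peak caller gave. Gains in G7 ranked lower still (median 19.2), and regions lost in both clones had a median rank of 21.4 in the WT libraries.

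Regions gained in B10 were also poorer in G and C. The same windows held a median of 42.8% G and C in the 1639 regions gained in B10 alone, 44.8% in those gained in both clones, 45.8% in the 236 gained in G7 alone and 46.8% in those lost in both, against 45.3% over all far intergenic regions and 48.8% in the nearer intergenic ones. Among regions under 40% G and C, 30.8% of the far and 14.4% of the nearer intergenic regions were gained in B10. Among regions with 50% or more, the shares were 10.8% and 4.61%. In the class of 40 to 45% the shares were 25.3% and 12.1%, and in the class of 45 to 50% they were 18% and 9.48%. The part that base composition has in the B10 gains was not tested.

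The AP-1 letters were more frequent in lost than in gained regions. TGACTCA was within 100 bases of the summit in 24.0% of far intergenic regions (23.2 to 24.9), in 20.1% of the nearer intergenic ones, in 16.8% of those in gene bodies and in 18.4% of all consensus regions. Regions lost in both clones held it in 32.3% (28.4 to 36.6), regions lost in B10 alone in 32.1% (27.2 to 37.6) and regions lost in G7 alone in 28.0% (24.1 to 32.2). Regions gained in both held it in 15.3% (12.1 to 19.1), regions gained in B10 alone in 16.5% (14.8 to 18.3) and regions gained in G7 alone in 15.7% (11.6 to 20.9). Among far intergenic regions as a whole the match was in 18.8% of those with a median rank of 0 to 25 and in 35.8% of those ranked 75 to 100, and the median rank was 20.8 in the regions lost in both and 28.5 in those gained in both. A TEAD match (ACATTCC) was in 10.8% of the regions gained in both (8.10 to 14.2) and in 4.44% of those lost in both (2.95 to 6.64), against 7.55% of the far intergenic and 5.63% of all regions. In the calls of 1 clone the intervals overlapped, with 8.11% (6.89 to 9.54) of the regions gained and 6.17% (3.98 to 9.43) of those lost in B10 alone, and 8.05% (5.21 to 12.2) and 6.41% (4.53 to 9) in G7 alone. SOX (CCTTTGT) matches were in 7.52% of the regions gained in both and 5.25% of those lost in both, with intervals that overlapped, and in 5.38% of all. The letters CNAGNGGGC of CTCF, a protein that anchors chromatin loops, were in 3.31% of far intergenic regions (2.97 to 3.68), against 6.93% of the nearer intergenic ones and 6.37% of all. Sites that differ from these letters are not counted, so these are not shares bound by CTCF. The far regions also held less G and C (median 45.3%, against 48.8% in the nearer intergenic ones), and its part was not tested. RUNX (TGTGGTT) matches were in 11.0% of far intergenic regions and 8.85% of all. A run of 8 A, searched on both strands, was in 6.20% and 4.98%.

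The AP-1 share was also compared between libraries. Of the far intergenic peak summits, 23.8%, 30.8% and 29.9% had TGACTCA within 100 bases in WT, 20.6%, 24.1% and 24.2% in B10, and 20.3%, 27.1% and 26.5% in G7. Replicate 1 was the lowest of each line, and within each replicate number both clones lay below WT. The mean was 28.1% ± 3.83 (n = 3) in WT, and the differences from WT were -5.19 percentage points in B10 (22.9% ± 2.05, n = 3) and -3.53 in G7 (24.6% ± 3.77, n = 3). Both gave p = 0.3 in the exact permutation test (adjusted p = 0.45) and p = 0.25 in the exact paired test. The share of summits in repeats was 8.13% ± 0.598 in WT, 8.59% ± 0.496 in B10 and 8.31% ± 0.344 in G7, and the lines overlapped. The median rank of the far intergenic peaks in their library was 43.5 ± 1.76 in WT, 43.2 ± 2.95 in B10 and 41.8 ± 0.847 in G7 and overlapped too.

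The far intergenic regions fell into 1209 gene deserts, here the stretches between neighbouring protein-coding gene bodies. A desert held a median of 4 of them, and 324 deserts held 10 or more. In 45 of these 324, at least 50% of the regions were gained in B10, compared with 2 deserts for gains in G7 and 1 for gains in both. These counts too are raised where B10 brought regions in, and the next comparisons of the same regions lean toward B10 for that reason. In 149 of the 324 (46.0%) every B10 library had more of the regions open than every WT library, and in 21 (6.48%) fewer. For G7 the counts were 46 (14.2%) above and 62 (19.1%) below WT. Both clones lay above WT in 40 deserts (12.3%) and below it in 15 (4.63%), and in 20 (6.17%) B10 lay above and G7 below. Counted by each library's own far intergenic peaks, with no consensus rule, every B10 library lay above every WT library in 139 of the same deserts (42.9%) and below in 23 (7.10%), and every G7 library above in 36 (11.1%) and below in 61 (18.8%). These numbers depend on the length of the lists. As a percentage of each library's peaks, B10 lay above WT in 129 deserts (39.8%) and below in 37 (11.4%). On that scale G7 lay above WT in 54 (16.7%) and below in 61 (18.8%).

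The desert with the most far intergenic regions was the 1.71 Mb between Kcnj2, a potassium channel gene, and Sox9, the master regulator gene of cartilage, on chromosome 11. Of its 115 regions, 74, 64 and 65 had a peak in the WT libraries, 97, 102 and 100 in B10, and 92, 93 and 86 in G7. Every KO library lay above every WT library. The own peaks there, with no consensus rule, kept this order, with 88, 70 and 69 in WT, 117, 112 and 110 in B10 and 112, 99 and 93 in G7. In this desert 21 regions were gained in B10 (18.3%, against 21.0% of all far intergenic regions) and 16 in G7 (13.9%, against 6.54%). Of the 115, 13 were gained in both (against 4.11% of all far intergenic regions). In B10 1 was lost and in G7 0 were lost, against 8.27% and 9.92% of all far intergenic regions. Those gained in both lay between 266.6 and 708.4 kb from Sox9 or between 428.2 and 708.8 kb from Kcnj2, whichever was nearer. The highest ranked of them in B10 by its lowest rank, chr11:112250753-112251396, lay 531.1 kb from the Sox9 start and had fold enrichments of 9.91, 8.75 and 8.45 in B10 and of 5.51, 5.96 and 5.51 in G7, with no peak in WT. The region chr11:111494053-111494669 had 10.8, 9.58 and 10.0 in B10 and 4.33, 7.16 and 5.05 in G7. These 2 regions were chosen after their values were seen, and their windows stand in the third set of sequences.

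Other deserts opened in 1 clone or in both. Between Fam19a2, also called Tafa2 and encoding a secreted brain protein, and Slc16a7, a gene for a monocarboxylate transporter, on chromosome 10, 25 regions had 2, 3 and 3 peaks in WT, 24, 25 and 22 in B10 and 20, 18 and 19 in G7. In this desert 16 regions were gained in both clones, the largest such count, followed by 13 between Kcnj2 and Sox9 and 10 of 32 between Fat4, a large protocadherin gene, and Intu on chromosome 3. The Fat4 desert had 12, 12 and 13 regions open in WT, 27, 30 and 29 in B10 and 26, 27 and 21 in G7. The clones parted between Nudt12 and Efna5, an ephrin ligand gene, on chromosome 17. There 43, 42 and 40 of 85 regions were open in WT, 70, 76 and 76 in B10 and only 15, 19 and 21 in G7, with 28 regions gained in B10 and 25 lost in G7. Between Api5 and Lrrc4c, a gene of a synaptic adhesion protein, on chromosome 2, the 26 regions had 1, 3 and 4 peaks in WT, 22, 24 and 22 in B10 and 0, 1 and 0 in G7. Between Olfm4 and Pcdh17 on chromosome 14, 7, 10 and 10 of 38 regions were open in WT, 31, 33 and 28 in B10 and 4, 8 and 11 in G7. The own peaks of the libraries, with no consensus rule, numbered 1, 3 and 4 in WT and 29, 31 and 22 in B10 between Api5 and Lrrc4c, 7, 10 and 11 and 41, 38 and 32 between Olfm4 and Pcdh17, and 47, 42 and 42 and 93, 89 and 78 between Nudt12 and Efna5. The Api5 and Olfm4 deserts were picked after their values were seen, from the 5 deserts with the most gains in B10.

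The deserts with the most losses in both clones were smaller. Between St3gal1, a sialyltransferase gene, and Zfat on chromosome 15, 16, 18 and 16 of 20 regions were open in WT, 10, 12 and 10 in B10 and 7, 11 and 8 in G7, with 8 lost in both. On chromosome 18, 6 of the 8 regions between Sall3 and Galr1 and 6 of the 7 between Wdr7 and St8sia3 were lost in both. The Sall3 desert had 7, 8 and 7 regions open in WT, 2 in each B10 library, and 1, 2 and 1 in G7. Some deserts with many regions had closer numbers in the 3 lines. Between Klf4, a pluripotency and epithelial factor gene, and Actl7b on chromosome 4, 49, 54 and 57 of 69 regions were open in WT, 47, 49 and 43 in B10 and 44, 56 and 53 in G7. B10 still gained 1 and lost 9 of these regions, and G7 gained 2 and lost 6. The own peaks there were fewer in every B10 library (54, 54 and 46) than in every WT library (63, 60 and 61). Between Adamts5 and N6amt1 on chromosome 16 all 9 libraries had 50 to 54 of 67 open. The deserts Zeb2-Acvr2a, Sel1l-Flrt2, Epha7-Map3k7, Nmbr-Cited2, Marcks-Rfpl4b and Csmd3-Trps1 held 60, 59, 54, 52, 52 and 52 regions, of which 2, 4, 1, 2, 1 and 1 were gained and 1, 4, 2, 1, 1 and 1 lost in both. In the last of these, 38, 33 and 39 regions were open in WT, 41, 39 and 43 in B10 and 31, 31 and 28 in G7.

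**Figure D4:**
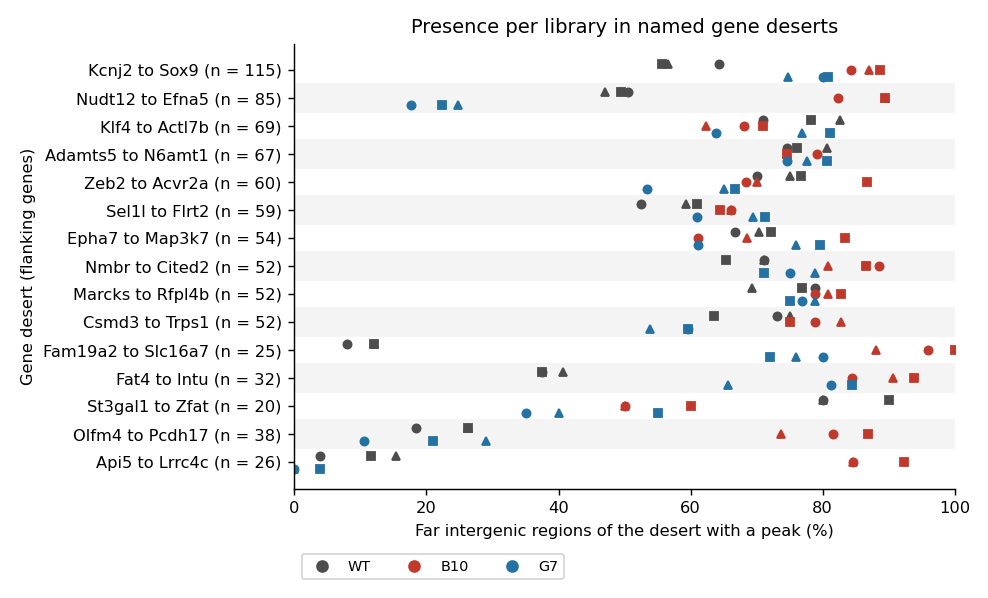
Share of the far intergenic regions of a gene desert with a peak (x axis, %) in each library, by desert (y axis, with the flanking genes and the number of regions) and coloured by line, with the shape giving the replicate as in the plot of values per library. Both clones lie right of WT between Fam19a2 and Slc16a7 and between Kcnj2 and Sox9, only B10 does so between Api5 and Lrrc4c, and G7 lies left of WT between Nudt12 and Efna5. The deserts of chromosome 18 are not drawn.

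Deserts were also grouped by 4 lists of flanking genes, and are described by counts beside those over all far intergenic regions. Skeletal and limb mesenchyme transcription factor genes (24 of 34 flanked a desert with far intergenic regions) had 495 regions next to them, of which 19.4% were gained in B10, 7.07% in G7, and 4.85% in both, while 5.05% were lost in G7 and 2.83% (14 regions) in both. Over all far intergenic regions these values were 21.0%, 6.54%, 4.11%, 9.92% and 5.10%. The desert between Kcnj2 and Sox9 alone supplied 115 of the 495 regions, 21 of the 96 gained in B10, 16 of the 35 gained in G7 and 13 of the 24 gained in both. Besides Sox9, its partner in cartilage Sox6 had 47 regions toward Insc (33, 31 and 30 open in WT, 42, 41 and 39 in B10, 38, 33 and 35 in G7), and Osr1 had 31 toward Nt5c1b, open in 22 to 27 in every library. Secreted signals and their antagonists (12 of 20 genes) had 150 regions, with 18% gained in B10 and 10.7% lost in G7. Between Inhba, the gene of an activin subunit, and Sugct, 15, 20 and 20 of 31 were open in WT and 25, 25 and 28 in B10. Adhesion and guidance genes (22 of 25) had 512 regions, of which 205, or 40%, were gained in B10 and 6.45% in G7. These regions were also farther from a start site (median 555 kb) and had less G and C (median 42.3%) than far intergenic regions as a whole, and the part of these properties was not tested. Adipocyte genes (4 of 14) had only 30 regions, of which 13.3% were gained in B10, 0 in both, and 0 were lost in either clone. The 8 regions between Cebpb, an early adipogenic factor gene, and Ptpn1 were open in 7 or 8 of the 8 in every library.

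The regions with a peak in no WT library and all 6 KO libraries included some of high rank. The strongest by its lowest rank, chr1:96301038-96301811 between St8sia4 and Slco4c1, lay 570.7 kb from the nearest start site and had fold enrichments of 17.9, 17.6 and 15.7 in B10 and 17.2, 13.8 and 17.0 in G7. The next, chr10:125197699-125198018, lay 111 kb from Slc16a7 and had 15.0, 14.8 and 16.0 in B10 and 12.4, 14.6 and 12.2 in G7. Its window, in the first set of sequences, holds an AP-1 and a SOX match. The others were 1 region between Fat4 and Intu, 1 between Mast4 and Srek1 and a second between Fam19a2 and Slc16a7, with ranks of 50.6 to 72.9 in the KO libraries.

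Among the regions present in the 3 WT libraries alone, chr8:87349472-87350238 lay 122.5 kb from Cbln1, a cerebellin gene, and had fold enrichments of 17.9, 18.6 and 20.4. The region chr1:158213572-158214237, 142.4 kb from Brinp2, had 16.4, 17.9 and 15.3. Both are in the first set of sequences, with a SOX match in the former and an AP-1 match in the latter. The other 3 lay between Wdr7 and St8sia3, between Klf12 and Prr30 and between Abca13 and Vwc2, with ranks of 63.95 to 83.12 in WT.

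Where a region was open in all 9 libraries its strength was compared with limma, on log2 fold enrichment centred on the median of each library, with Benjamini-Hochberg adjustment over 46449 regions. Of the 3191 far intergenic regions in this fit, 169 (5.30%) were stronger in B10 at an adjusted p below 0.05, against 3.54% of all regions tested, and 108 (3.38%) were weaker, against 3.05%. In G7, 73 (2.29%) were stronger, against 1.55%, and 65 (2.04%) were weaker, against 1.20%. Stronger in both clones were 54 (1.69%, against 1.07% of all) and weaker in both 16 (0.501%, against 0.508%). With the replicate number as a block (replicate block), which the shared deviations of same-numbered libraries call for, 396 were stronger in B10 (12.4%, against 9.35% of all) and 293 weaker (9.18%, against 7.51%). The same fit gave 196 stronger in G7 (6.14%, against 4.83%) and 186 weaker (5.83%, against 3.72%), and 141 stronger in both (4.42%, against 3.30%) and 71 weaker in both (2.23%, against 1.78%). The median log2 difference was 0.011 in B10 and 0.0078 in G7, against 0.031 and 0.025 over all regions tested. The counts rested on single libraries: without WT replicate 1, 131 were stronger in both, and without G7 replicate 3, 20. WT replicate 2 or 3 left out gave 8 and 7 weaker in both.

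**Figure D5:**
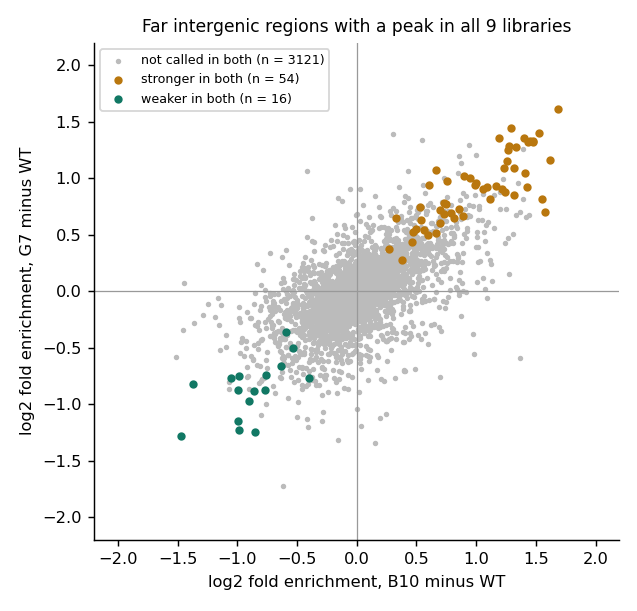
Difference in log2 fold enrichment of each far intergenic region with a peak in all 9 libraries, B10 minus WT (x axis) against G7 minus WT (y axis), 1 point per region. The 54 regions stronger in both clones lie in the upper right and the 16 weaker in both in the lower left. Both axes use the same WT libraries.

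The region with the largest common increase, chr10:124349199-124349690, again lay between Fam19a2 and Slc16a7, 959.4 kb from a start site. Its fold enrichment was 6.51, 8.73 and 7.01 in WT, 25.3, 22.7 and 22.1 in B10, and 22.5, 21.3 and 19.6 in G7. The lines of KO cells did not overlap with WT, and the log2 difference was 1.68 ± 0.108 (SE) in B10 and 1.61 ± 0.108 in G7 (limma adjusted p = 4.35e-04 and 6.19e-04). Its window, first in the second set of sequences, holds none of the matches searched there. The region chr10:118630711-118631525, 190.1 kb from Ifng, the interferon gamma gene, had 4.23, 5.82 and 3.82 in WT, 12.8, 14.5 and 11.7 in B10 and 12.4, 12.2 and 9.35 in G7 (log2 difference 1.53 ± 0.176 and 1.40 ± 0.176, limma adjusted p = 0.00179 and 0.00455). Between Slc4a4 and Gc, the vitamin D binding protein gene, chr5:89277169-89277962 rose by 1.40 and 1.35 on the log2 scale in B10 and G7. The other 2 of the largest 5 lay between Edil3 and Hapln1, a cartilage link protein gene (1.47 and 1.33), and between Fat4 and Intu (1.45 and 1.33). The call of the Edil3 region in G7 was lost in 8 of the 9 fits that left out 1 library (limma adjusted p = 0.058 to 0.135 in those), and in B10 in 4.

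The largest common decrease was at chr14:8789252-8789992, 123.4 kb from 4930452B06Rik toward Fhit. The fold enrichment was 16.7, 19.4 and 19.2 in WT, 5.29, 6.76 and 7.78 in B10 and 8.13, 6.02 and 7.25 in G7, with no overlap, and it fell by 1.48 and 1.28 on the log2 scale (SE 0.156 each, limma adjusted p = 0.00138 and 0.00445). Its window, in the second set of sequences, holds an AP-1 and a TEAD match. The region chr1:75652625-75654160 between Slc4a3 and Epha4, an ephrin receptor gene, had 12, 11.2 and 11.5 in WT, 5.29, 5.53 and 6.48 in B10 and 5.81, 4.52 and 4.41 in G7. The other 3 lay between Adgrl2 and Adgrl4, between Nek10 and Lrrc3b and between Nbea and Tm4sf1, and fell by 0.88 to 1.23 on the log2 scale in the clones. The call of the Nbea region was lost in G7 in 6 of the 9 fits that left out 1 library (limma adjusted p = 0.0511 to 0.115 in those) and in B10 in 1, and that of the Adgrl2 region in B10 in 3.

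The strongest regions shared by all 9 libraries differed little between lines. The 2 with the highest median rank, chr3:5860339-5860826 and chr12:3109872-3110113, hold 31-base words that occur a median of 2 and 44 times in the genome, so the reads behind them may come from more than 1 place. Of the other 8 among the 10 strongest, 2 lay between Trib1, a pseudokinase gene, and 4933412E24Rik, and 1 each lay toward Samd9l, between Klf4 and Actl7b, between Trps1 and Eif3h, between Rps24 and Zmiz1, between Csmd3 and Trps1, and between Cep162 and Tbx18, a limb and heart mesenchyme factor gene. The region chr15:59759113-59760550, 111.2 kb from Trib1 and shown in the first set of sequences with 2 AP-1 matches, had fold enrichments of 13.5, 14.3 and 12.6 in WT, 12.4, 13.6 and 11.8 in B10 and 13.4, 12.9 and 13.1 in G7. None of the 10 passed an adjusted p of 0.05 in either clone with limma.

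The farthest regions lay in the desert between the protocadherin genes Pcdh20 and Pcdh9 on chromosome 14. The farthest, chr14:91224199-91224767, was 2661 kb from a start site and had fold enrichments of 9.03, 11.1 and 9.07 in B10, 6.31 in G7 replicate 3 and no peak in the other 5 libraries. The next 2, at 2650 and 2640 kb, were weak, with fold enrichments of 3.47 to 4.65 in the 2 and 3 libraries that held them. At the threshold of the rule, the 3 regions just inside 100 kb lay near Speer3, Sfrp1 and Msr1 and had a peak in 4, 6 and 7 of the 9 libraries. The 3 intergenic regions just outside it lay 99.99, 99.97 and 99.96 kb from Irx4, Nufip1 and Ppp6c and had a peak in 6, 4 and 9 libraries.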

How the data were processed

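ATAC-seq peak lists of 9 libraries were analysed. Reads were checked by the authors with Rfastp and aligned as pairs to mm10 with Rsubread, and MACS2 called the peaks of each replicate on its own. The methods name no control for ATAC-seq, although the peak names mention an input. The deposited lists give, for each peak, its position, a fold enrichment (a ratio of signal to background) and a −log10 p-value and −log10 q-value, all as the authors' peak caller made them, and the lowest −log10 q was 1.30. They give no depth per library.

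Regions were built as described in the report from peaks of chromosomes 1 to 19, with gene bodies of all types and start sites of protein-coding transcripts from GENCODE M21. A library's value in a region was that of its highest peak there. The sequence of GRCm38.p6 and its repeat masking came from RefSeq. Motifs were searched within 100 bases of the summit of the highest ranked peak. The lines were compared with an exact two-sided permutation test on library values, adjusted over 3 comparisons per measure by the Benjamini-Hochberg method, and fold enrichments with limma 3.58.1 (trend = TRUE) in R 4.3.3. Other steps used Python 3.11.15 and NumPy 2.4.6. The region building and the limma fit were checked on simulated data. Deviations of same-numbered libraries from their line means correlated at 0.241 to 0.590 over all 9 pairs of libraries, so replicate numbers, which come from the labels, were taken as pairs. No 2 libraries shared over 0.382% of identical peaks.

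The regions named were the 10 strongest in all 9 libraries, the 5 strongest in KO alone and in WT alone, the 5 with the largest increase and decrease in both clones, the 3 farthest, the 3 on either side of 100 kb, and the deserts with the most regions (10), the most gained (3) and the most lost (3) in both clones. The members and lists were chosen with earlier results of these data known. Alternatives left out each library or replicate 1 of all lines, took equal numbers of peaks, a −log10 q of at least 5, presence in 3 of 3 libraries, 50 kb or 200 kb, other normalizations and presence rules for limma, and pairs. Added after the data were seen were start sites of whole genes, each library's own peaks with no consensus rule, and regions chosen by WT alone.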

Additional observations from a re-analysis of the deposited data

Results flagged for a closer look

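The clones moved apart in several far intergenic measures. All 3 B10 libraries lay above and all 3 G7 libraries below the WT mean in the number of far intergenic regions with a peak, with a difference of 1617 regions between the means of B10 and G7, and in their share of a library's regions, with a difference of 1.60 percentage points. These regions include 2109 that B10 alone brought in, so a test of the differences on them cannot be read and none is given. On each library's own peaks, with no consensus rule, the share was 1.86 points higher in B10 than in G7 (p = 0.1 in the exact permutation test, the smallest it can give). The same held in 3 of the named deserts, in the number of regions with a peak. The means of B10 and G7 differed by 55.7 of 85 regions between Nudt12 and Efna5, by 22.3 of 26 between Api5 and Lrrc4c, and by 11 of 52 between Csmd3 and Trps1. The own peaks kept this order in the Nudt12 and Api5 deserts but not in the Csmd3 desert. There they numbered 47, 33 and 40 in WT, 52, 39 and 47 in B10 and 39, 32 and 28 in G7, and both clones overlapped with WT. These differences in deserts were not tested.

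Of the 3191 far intergenic regions with a peak in all 9 libraries, 79 differed in fold enrichment between B10 and G7 (limma, adjusted p below 0.05 over 46449 regions), 51 higher (1.60%, against 0.693% of all regions tested) and 28 lower in B10 (0.877%, against 0.973%). With the replicate block 153 were higher (4.79%, against 2.29%) and 105 lower (3.29%, against 2.69%). None of the 10 regions named for a common change was among the 79.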

How the results depend on the processing

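The higher share of far intergenic regions gained in B10 than of all consensus regions held under every alternative for presence calls, with a ratio of 1.66 to 2.45. Each of these alternatives still let B10 bring regions in. A peak in 3 of 3 libraries gave 11.4% gained and 3.17% lost in B10, 2.85% gained and 4.10% lost in G7, and 1.66% gained and 1.84% lost in both. Equal numbers of peaks per library gave 17.8% gained and 10.4% lost in B10. Leaving out 1 library gave 14.7% to 27.7% gained and 4.22% to 11.5% lost in B10, 4.05% to 10.9% gained and 5.52% to 12.9% lost in G7, and 2.83% to 7.51% gained and 2.48% to 6.42% lost in both. It gave differences in share of 1.15 to 1.53 (B10 minus WT), -0.305 to -0.0792 (G7 minus WT) and 1.37 to 1.70 points (B10 minus G7). In the limma fit it gave 20 to 131 stronger and 7 to 23 weaker in both, 77 to 302 and 44 to 136 in B10, and 23 to 163 and 27 to 68 in G7.

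With the replicate block (paired fit) the counts stronger and weaker were 141 and 71 in both, 396 and 293 in B10, and 196 and 186 in G7. With replicates 2 and 3 of all lines they were 145 and 56, 404 and 273, and 189 and 159. On percentile ranks they were 122 and 58, 394 and 165, and 152 and 185. Without centring, 25 were weaker in both and 112 in G7, and with a peak in 2 of 3 libraries of each line, 34 were weaker in both. The cause of these shifts was not tested. The 10 regions named for a common change kept their direction under every alternative and their calls under the replicate block. Of 300 recomputed values of these regions, 23 missed the threshold. All were of the Edil3-Hapln1, Nbea-Tm4sf1 and Adgrl2-Adgrl4 regions, 22 when 1 library was left out and 1 with replicates 2 and 3 alone (Nbea-Tm4sf1 in G7).

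Directions turned for small differences, given with the range when 1 library was left out. They were in the number of regions, G7 minus WT (-367 to 29.2, 29.2 without WT replicate 2, 15 without WT replicate 3), in median rank, B10 minus WT (-2.44 to 2.00, 1.63 and 2.00 without B10 replicates 2 and 3, 2.64 with equal peak numbers, 0.998 at a −log10 q of at least 5), in the repeat share, G7 minus WT (-0.204 to 0.419, -0.204 without WT replicate 1, -0.143 without G7 replicate 3, -0.0809 with replicates 2 and 3 alone, -0.0513 when at least 50% of the window was masked) and B10 minus G7 (-0.139 to 0.592, -0.139 without B10 replicate 2, -0.00981 with equal peak numbers), and in the AP-1 share, B10 minus G7 (-4.03 to 0.0428, 0.0428 without B10 replicate 1). The start sites of whole genes in place of transcripts, an alternative chosen after seeing the data, moved no count of presence calls by over 1.5 times. Shares of a library's own peaks, also chosen after seeing the data, differed by 1.58 (B10 minus WT), -0.284 (G7 minus WT) and 1.86 points (B10 minus G7). The lack of a depth per library limits all presence calls: a weak peak absent from a list is not shown to be closed.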
